A study of Rattus norvegicus with 8 samples.

Results

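Unfolded protein and amino acid stress genes were examined in cultured primary aortic smooth muscle cells of Sprague-Dawley rats. The 39 genes were fixed by symbol, with earlier results of these data known. They comprise an ER chaperone arm of 18 genes, 4 genes of the stress sensors and Xbp1, and an Atf4 arm of 17 genes. A member was found when the RefSeq accessions of a listed RNA locus pointed to that symbol alone, and the locus with the highest mean level stood for the gene. This found 37 of the 39, out of 14767 symbols with a usable locus. Manf and Edem1 had no matched locus and were not analysed here. The first group had been kept without serum overnight and then exposed to 0.1 uM angiotensin II (AngII) for 3 h. This peptide of the renin-angiotensin system raises vascular tone. The other group was the untreated control. Serum withdrawal is recorded for the AngII samples only, so AngII and serum withdrawal cannot be told apart from the labels. Each condition had 1 RNA library and 1 ChIP library for each of H3K4me3 (a histone mark at active promoters) and H3K36me3 (one deposited along gene bodies during transcription). No difference below therefore has a replicate check, and no p-value is given. How many animals each library came from is not stated.

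The endoplasmic reticulum (ER) folds secreted and membrane proteins, and vascular smooth muscle cells load it heavily with collagens and other matrix proteins. When unfolded proteins accumulate, the sensors Ire1 (gene Ern1), Atf6 and Perk (gene Eif2ak3) are activated. Cleaved Atf6 and spliced Xbp1 induce chaperones and degradation factors, while Perk phosphorylates the translation factor eIF2, which slows protein synthesis and favours translation of Atf4. The same eIF2 step is reached from amino acid shortage through another kinase, so Atf4 and its targets also form the amino acid response. Splicing of Xbp1, cleavage of Atf6 and translation of Atf4 cannot be read from RNA levels per gene.

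Recognition motifs of these factors are known, and the matches in the members' promoters are shown because the arms differ in them. RefSeq promoters (assembly GRCr8) of 300 bases, from 250 before to 50 after the annotated gene start, were at hand for 34 of the 39 members, and 14 of the 34 held at least 1 of the 5 motifs searched, against 6.45% of all promoters in the table. The ER stress element, bound by Atf6 and Xbp1 together with the CCAAT factor NF-Y, was searched on both strands as CCAAT, any 9 bases, then CCACG. It was found in 6 of 15 ER chaperone promoters, in 1 of 2 promoters of the sensor group (Xbp1) and in 0 of 17 Atf4 arm promoters, against 22 of all 33469 promoters in the table (0.0657%). The 8 matches are given 5′ to 3′ in the motif's own direction, with the fixed bases in capitals.
Hspa5: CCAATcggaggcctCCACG
Hsp90b1 (176 bases before the start): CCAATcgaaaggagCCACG
Hsp90b1 (72 bases before the start): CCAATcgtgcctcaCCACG
Calr: CCAATcagggtcgaCCACG
Canx: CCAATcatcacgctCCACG
Creld2: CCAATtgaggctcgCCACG
Dnajc3: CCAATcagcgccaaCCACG
Xbp1: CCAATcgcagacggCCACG

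A second form, ER stress element II, was searched as ATTGG, any base, then CCACG. It was found in 3 of the 15 ER chaperone promoters (Herpud1, Hyou1 and Dnajb11) and in 0.0508% of all promoters. Counting either form, 9 of 15 ER chaperone promoters and 0 of 17 Atf4 arm promoters had a match, against 0.117% of all promoters. The C/EBP-ATF element, bound by Atf4 with a C/EBP partner, was searched as TGATG, any base, AA. It was found in 3 Atf4 arm promoters (Chac1, Trib3 and Ppp1r15b) and 1 ER chaperone promoter (Herpud1), against 3.98% of all promoters. The cAMP response element TGACGTCA was found at Ppp1r15a alone among the members (1.83% of all promoters). The unfolded protein response element core TGACGTGG was found at Hyou1 alone (0.595%), where it overlaps a match of ER stress element II. Hspa5 had its ER stress element 43 bases before the start and Creld2 145 bases before it. A match is a description of letters in this window and not evidence of binding, and members without a match may hold the motif elsewhere or in a looser form.

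**Figure D1:**
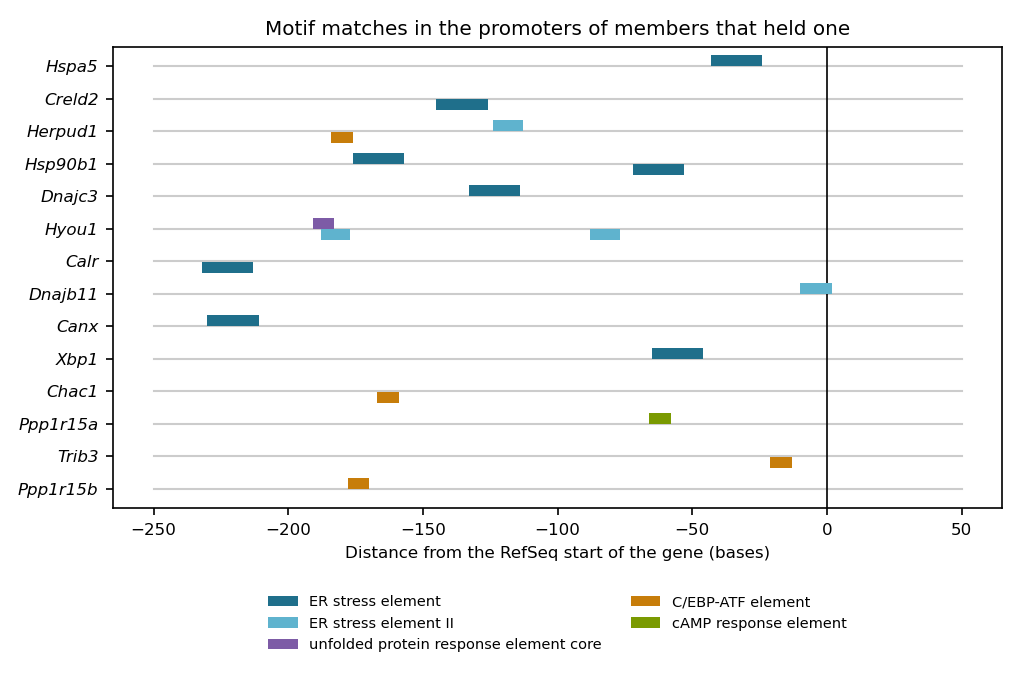
Position of each motif match from 250 bases before to 50 bases after the RefSeq start, for the members with at least 1 match, with bars above the line on the gene's strand and bars below it on the opposite strand. ER stress elements of both forms lie in ER chaperone promoters, and Xbp1 has the first form only. The C/EBP-ATF matches lie at Herpud1 and at 3 Atf4 arm genes.

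The ER chaperone promoters of the 3 genes with a match and the largest RNA ratios are given below, 5′ to 3′ on the gene's strand, with the fixed bases of the motif matches in capitals. They show the ER stress element on either strand and, at Herpud1, the opposite strand C/EBP-ATF match upstream of ER stress element II.
Hspa5, chr3:38452766-38453065, plus strand: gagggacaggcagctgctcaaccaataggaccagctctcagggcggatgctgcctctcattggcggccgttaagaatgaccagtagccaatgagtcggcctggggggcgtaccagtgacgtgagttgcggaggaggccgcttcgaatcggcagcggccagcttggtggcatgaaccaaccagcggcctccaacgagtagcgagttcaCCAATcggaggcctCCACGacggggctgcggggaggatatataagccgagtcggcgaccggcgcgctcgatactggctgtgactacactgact
Creld2, chr7:121789134-121789433, plus strand: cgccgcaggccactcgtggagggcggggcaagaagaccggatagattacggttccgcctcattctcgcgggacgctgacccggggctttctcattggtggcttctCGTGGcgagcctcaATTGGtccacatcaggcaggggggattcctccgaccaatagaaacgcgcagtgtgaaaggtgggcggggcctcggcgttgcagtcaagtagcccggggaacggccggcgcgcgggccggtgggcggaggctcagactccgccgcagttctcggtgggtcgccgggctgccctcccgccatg
Herpud1, chr19:10614658-10614957, minus strand: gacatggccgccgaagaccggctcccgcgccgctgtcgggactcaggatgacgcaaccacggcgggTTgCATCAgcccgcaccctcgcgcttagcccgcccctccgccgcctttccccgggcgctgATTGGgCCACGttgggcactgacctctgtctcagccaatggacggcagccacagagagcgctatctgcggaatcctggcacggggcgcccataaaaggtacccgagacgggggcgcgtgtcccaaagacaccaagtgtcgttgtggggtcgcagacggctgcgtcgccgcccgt

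The corresponding Atf4 arm promoters are those of Chac1, Ppp1r15a and Trib3, with the C/EBP-ATF or cAMP response element in capitals.
Chac1, chr3:126795881-126796180, plus strand: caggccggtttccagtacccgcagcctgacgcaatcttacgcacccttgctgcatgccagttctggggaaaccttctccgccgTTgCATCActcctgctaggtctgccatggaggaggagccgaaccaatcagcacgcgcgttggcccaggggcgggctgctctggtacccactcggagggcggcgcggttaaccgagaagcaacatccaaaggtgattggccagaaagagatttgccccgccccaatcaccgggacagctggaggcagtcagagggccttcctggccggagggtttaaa
Ppp1r15a, chr1:105139547-105139846, minus strand: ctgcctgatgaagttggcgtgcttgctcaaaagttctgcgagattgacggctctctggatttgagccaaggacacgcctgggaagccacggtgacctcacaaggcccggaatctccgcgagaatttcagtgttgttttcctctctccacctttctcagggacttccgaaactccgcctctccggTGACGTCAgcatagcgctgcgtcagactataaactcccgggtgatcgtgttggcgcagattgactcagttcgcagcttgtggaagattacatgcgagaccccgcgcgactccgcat
Trib3, chr3:161275484-161275783, minus strand: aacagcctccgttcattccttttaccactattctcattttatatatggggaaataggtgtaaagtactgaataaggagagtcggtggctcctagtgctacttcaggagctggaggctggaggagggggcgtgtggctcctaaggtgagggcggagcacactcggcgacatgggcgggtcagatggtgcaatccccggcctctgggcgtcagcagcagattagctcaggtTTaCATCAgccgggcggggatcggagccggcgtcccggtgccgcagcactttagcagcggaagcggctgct

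RNA levels are in FPKM, fragments scaled to transcript length and library size, as the authors deposited them with a lower and an upper confidence bound. The bounds are model errors of 1 library and hold no variation between cultures. Ratios on the log2 scale are log2((AngII FPKM + 1)/(control FPKM + 1)), and a gene was counted as expressed at 1 FPKM or more in at least 1 library. The median of 8354 expressed symbols was -0.22 (interquartile range -0.46 to 0.08), so ratios are read against that value as well as against 0. In bulk RNA, fewer cells of a type and less RNA per cell cannot be told apart. The smooth muscle marker Tagln stood at 5244 FPKM after AngII and 5103 FPKM in control, and the 9 smooth muscle markers with a locus summed to 7948 FPKM after AngII and 8050.4 FPKM in control. Tagln makes up most of that sum, and the ratios of the 8 expressed markers ran from -0.23 to 0.97. Myocd, the coactivator of smooth muscle genes, stood at 18.3 FPKM after AngII and 8.81 FPKM in control (log2 ratio 0.97). Smtn (0.74) and Cnn1 (0.46) were also higher, while Myh11 (-0.19), Tpm2 (-0.17) and Cald1 (-0.23) lay below 0, all with overlapping bounds. The part of these markers in the members' ratios was not tested. Des was below 1 FPKM in both, and Acta2 had no matched locus and was not analysed here. All 6 endothelial markers with a locus were listed below 1 FPKM, with Tie1, Cldn5 and Emcn at 0. Ptprc, Cd3e and Itgam, and the plasma cell genes Mzb1 and Irf4, were listed at 0 in both libraries. Of the 9 leukocyte markers 3 were expressed. Genes that every cell uses, such as Rpn1 of the oligosaccharyltransferase and the tRNA synthetase gene Qars1, were also listed at 0 in both libraries, so a listed 0 need not mean a low level.

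The unfolded protein and amino acid stress genes were mostly higher after AngII, by modest amounts. All 36 members with a level above 0 were expressed, and 30 had a ratio above 0, against 30.0% of all expressed symbols. Of the 36, 33 lay above the median symbol. The median of the 36 ratios was 0.35, with quartiles of 0.18 and 0.59. At least 2-fold higher were 5 members (Chac1, Hspa5, Ppp1r15a, Creld2 and Ern1), against 3.89% of expressed symbols. Of the 36, 2 were 2-fold higher with bounds apart (Chac1 and Ppp1r15a), against 2.71% of expressed symbols. Among those 2-fold higher, bounds thus lay apart for 2 of 5 members and for 226 of 325 expressed symbols. None of the 36 was 2-fold lower, against 2.96% of expressed symbols. Pdia6, a disulfide isomerase, was listed at 0 in both libraries at a locus on an unplaced sequence of chromosome 6. All 247 loci on unplaced sequences were listed at 0, and no ChIP region lies on them, so its level and marks are unknown.

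**Figure D2:**
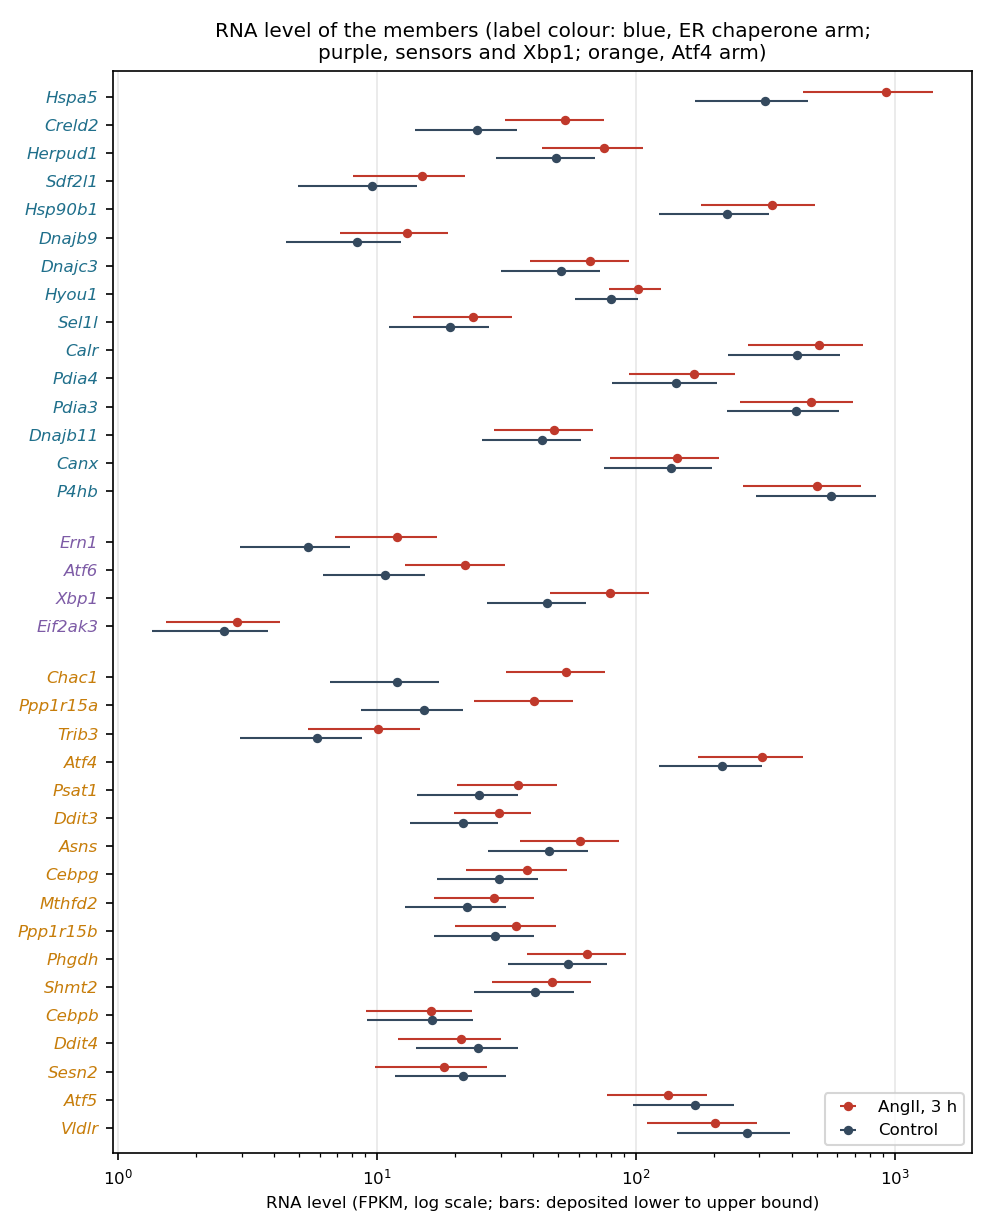
RNA level in FPKM on a log axis for the 36 members with a level above 0, with AngII above control for each gene and bars from the deposited lower to upper bound. The bars of Chac1 and Ppp1r15a lie apart and those of the other 34 members overlap.

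Hspa5, the ER Hsp70 chaperone also called BiP that keeps the sensors inactive, had the highest level of all members after AngII. It stood at 922 FPKM after AngII (bounds 442 to 1403) and 316 FPKM in control (169.7 to 462), a ratio of 2.92. The bounds overlap, and the ratio taken from bound to opposite bound runs from 0.957 to 8.27. Its locus lies at chr3:13783618-13788078 in the rn4 assembly of the files. Creld2, a luminal stress protein that binds unfolded clients, stood at 53.3 FPKM after AngII (31.2 to 75.4) and 24.4 FPKM in control (14 to 34.8), a ratio of 2.18 with overlapping bounds. Hsp90b1, the ER Hsp90, stood at 336 FPKM after AngII and 224 FPKM in control (log2 ratio 0.58). Hyou1, an exchange factor and chaperone of the Hsp110 type, stood at 102 FPKM after AngII and 79.9 FPKM in control (0.35). All of these lay above the median symbol.

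The cochaperones of Hspa5 were higher by smaller amounts. Dnajb9, a J-domain protein, stood at 13.0 FPKM after AngII and 8.39 FPKM in control (log2 ratio 0.58). Sdf2l1, a partner of the ER J-domain proteins, stood at 14.9 FPKM after AngII and 9.59 FPKM in control (0.59). Dnajc3, another J-domain cochaperone, stood at 66.5 FPKM after AngII and 51.5 FPKM in control (0.36), and Dnajb11 at 48.2 FPKM after AngII and 43.3 FPKM in control (0.15). The 4 cochaperones thus ranged from 0.15 to 0.59, all with overlapping bounds. Herpud1, which recruits the degradation machinery to the ER membrane, stood at 75 FPKM after AngII and 49.2 FPKM in control (0.60). Sel1l, the adaptor of the Hrd1 ubiquitin ligase, stood at 23.5 FPKM after AngII and 19.1 FPKM in control (0.29).

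The lectin chaperones and disulfide isomerases, which are among the most abundant members, had log2 ratios from -0.18 to 0.29. Calr, the soluble lectin chaperone, stood at 511 FPKM after AngII and 419 FPKM in control (log2 ratio 0.29). Canx, its membrane-bound relative, stood at 144 FPKM after AngII and 136 FPKM in control (0.08). Pdia3, the isomerase that works with both lectins, stood at 472 FPKM after AngII and 415 FPKM in control (0.19). Pdia4 stood at 167 FPKM after AngII and 143 FPKM in control (0.23). P4hb, a disulfide isomerase and the beta subunit of the prolyl hydroxylase of collagen, stood at 499.8 FPKM after AngII and 567 FPKM in control (-0.18). It was the 1 member of the arm below 0, although above the median symbol. By level, P4hb was first in control and Hspa5 first after AngII, with Calr and then P4hb behind it. The bounds of these neighbours overlap in each library, so their order is not firm.

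Hspa5 made up much of the arm's difference in RNA. The 15 measured members summed to 3449 FPKM after AngII and 2506 FPKM in control. Hspa5 alone accounted for 64.3% of the difference between those sums, and its part of the sum was 26.7% after AngII and 12.6% in control. Without Hspa5 the sums were 2527 FPKM after AngII and 2189.8 FPKM in control, a ratio of 1.15. Members with an ER stress element of either form had a median log2 ratio of 0.36 (9 genes, 0.08 to 1.54), and the 5 measured members whose promoter held none had 0.29 (-0.18 to 0.59). The ranges overlap, and motif holders such as Canx lay among the lowest ratios of the arm.

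Levels in this group ran from Eif2ak3, the lowest member, to Xbp1, which was above the members' median. Ern1, the kinase and RNase that splices the Xbp1 message, stood at 12.0 FPKM after AngII (6.90 to 17.1) and 5.40 FPKM in control (2.96 to 7.85), a ratio of 2.22. Atf6, the membrane-bound factor activated by cleavage, stood at 22 FPKM after AngII (12.8 to 31.1) and 10.8 FPKM in control (6.19 to 15.4). Its plain ratio was 2.04, and only the pseudocount of 1 put its log2 ratio of 0.96 just under the 2-fold rule, where Ern1 with 1.02 was just over it. Xbp1 stood at 79.5 FPKM after AngII (46.4 to 113) and 45.3 FPKM in control (26.5 to 64.1), a log2 ratio of 0.80. These 3 genes had ratios close together, and the bounds overlap for each. Eif2ak3, the eIF2 kinase Perk, stood at 2.88 FPKM after AngII (1.54 to 4.22) and 2.57 FPKM in control (1.35 to 3.79), a log2 ratio of 0.12. The median of the 4 ratios was 0.88.

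**Figure D3:**
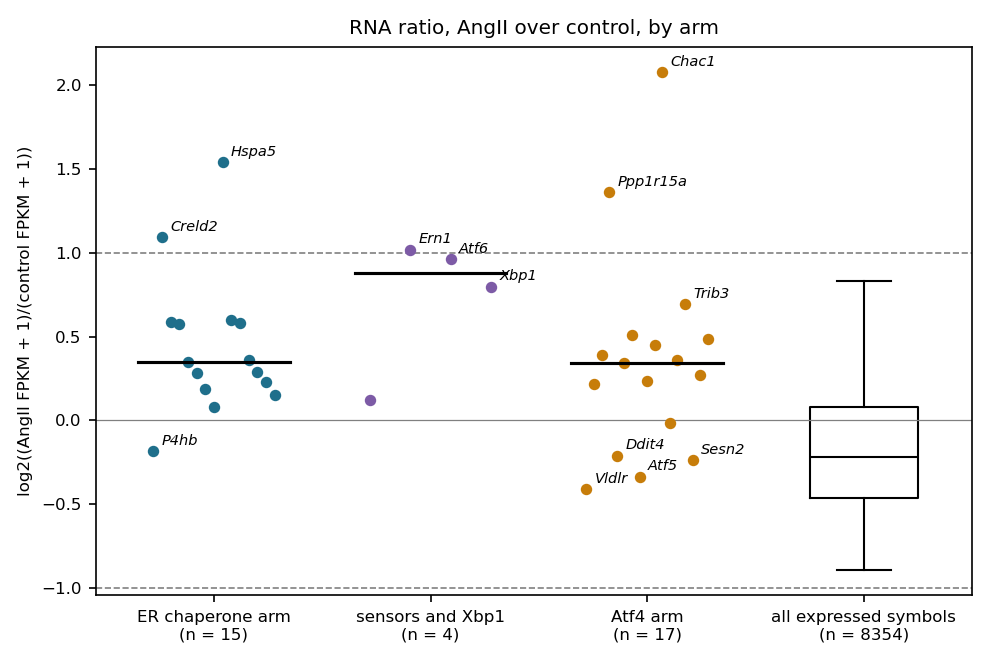
Log2 ratio of AngII over control for each measured member by arm, with a bar at the arm's median, beside a box of all 8354 expressed symbols (median, quartiles, and whiskers at the 5th and 95th percentiles). Dashed lines mark the 2-fold rule, which 5 members pass on the higher side and none on the lower side.

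In the Atf4 arm, 2 regulators stood apart by the size of their ratio. Chac1, which degrades glutathione and is a well known Atf4 target, stood at 53.7 FPKM after AngII (31.4 to 76.0) and 11.9 FPKM in control (6.57 to 17.3). That is a ratio of 4.50 with bounds apart, and even from bound to opposite bound it was at least 1.82. Its locus lies at chr3:105870107-105873318 (rn4). Ppp1r15a, the phosphatase subunit Gadd34 that removes the phosphate from eIF2, stood at 40.4 FPKM after AngII (23.7 to 57.2) and 15.1 FPKM in control (8.68 to 21.6). Its ratio was 2.67 with bounds apart, at chr1:95994022-95997080 (rn4). Ppp1r15b, the constitutive subunit of the same phosphatase, stood at 34.5 FPKM after AngII and 28.4 FPKM in control (log2 ratio 0.27). Trib3, a pseudokinase that feeds back on Atf4, stood at 10.1 FPKM after AngII (5.42 to 14.7) and 5.84 FPKM in control (2.97 to 8.72), a log2 ratio of 0.69 with overlapping bounds.

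Other stress regulators counted to the arm lay below 0. Sesn2, which restrains mTORC1 when leucine is short, stood at 18.1 FPKM after AngII and 21.6 FPKM in control (log2 ratio -0.24). Ddit4, another mTORC1 inhibitor, stood at 21.1 FPKM after AngII and 24.6 FPKM in control (-0.21). Vldlr, a lipoprotein receptor that is also an Atf4 target, stood at 202 FPKM after AngII and 269 FPKM in control (-0.41), the lowest ratio of all members. Bounds overlapped in each, and Ddit4 lay at about the level of the median symbol.

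The transcription factors of the arm had log2 ratios from -0.34 to 0.51. Atf4 itself stood at 307 FPKM after AngII (173 to 441) and 215 FPKM in control (123 to 307), a log2 ratio of 0.51, and was the most abundant member of the arm after AngII. Ddit3, the factor Chop linked to death under lasting stress, stood at 29.6 FPKM after AngII and 21.4 FPKM in control (0.45). Cebpg, a dimer partner of Atf4, stood at 38.1 FPKM after AngII and 29.5 FPKM in control (0.36). Cebpb, another C/EBP factor, stood at 16.1 FPKM after AngII and 16.4 FPKM in control (-0.02). Atf5, a close relative of Atf4, stood at 133 FPKM after AngII and 168 FPKM in control (-0.34). Of the 5 factors 3 lay above 0 and 2 below, all with overlapping bounds.

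The 5 enzymes of amino acid and one-carbon metabolism lay in a narrow band from 0.21 to 0.49. Asns, which makes asparagine, stood at 60.8 FPKM after AngII and 46.0 FPKM in control (log2 ratio 0.39). Psat1, of serine synthesis, stood at 35 FPKM after AngII and 24.7 FPKM in control (0.49). Phgdh, which opens that pathway, stood at 64.7 FPKM after AngII and 54.8 FPKM in control (0.24). Shmt2, the mitochondrial enzyme that splits serine, stood at 47.3 FPKM after AngII and 40.6 FPKM in control (0.21). Mthfd2, of mitochondrial folate metabolism, stood at 28.4 FPKM after AngII and 22.2 FPKM in control (0.34). All 5 were higher after AngII, each by less than its bounds could separate.

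The ER chaperone arm and the Atf4 arm had nearly the same median. The medians were 0.34 in the Atf4 arm and 0.35 in the ER chaperone arm, a difference of -0.01. The spread was wider in the Atf4 arm, which ran from -0.41 to 2.08 (quartiles -0.02 and 0.49), against -0.18 to 1.54 (quartiles 0.21 and 0.59) in the ER chaperone arm. Ratios above 0 were found for 12 of 17 measured Atf4 arm members and 14 of 15 measured ER chaperone members. All 15 ER chaperone members lay inside the range of the Atf4 arm. Each arm had 2 members at least 2-fold higher, and those with bounds apart were both in the Atf4 arm. By level the ER chaperone arm was the higher one, with a median of 102 FPKM after AngII and 79.9 FPKM in control, against 38.1 FPKM after AngII and 24.7 FPKM in control in the Atf4 arm. With 1 library per condition a difference between the arms could not be tested.

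Other genes of these pathways are given by list, and no difference from the members was tested. Of 18 further ER chaperones and folding enzymes that were expressed, 0 were 2-fold higher and 0 lower, and the median was -0.11, with 12 above the median of all expressed symbols. Txndc11 (0.71) and Nucb2 (0.47) were highest, Creld1 (-0.65) and Sil1 (-0.47) lowest. Among 15 genes of ER-associated degradation the median was -0.08, with 11 above the median symbol. Edem2, a mannosidase-like factor, was the 1 gene at least 2-fold lower (5.05 FPKM after AngII and 11.1 FPKM in control, bounds overlapping). The 14 expressed translocation genes had a median of -0.06 and ranged from -0.30 to 0.36, with 12 above the median symbol. The 8 signalling genes had a median of -0.28, with 3 above the median symbol. The proteases that cleave Atf6, Mbtps1 (-0.48) and Mbtps2 (-0.52), lay below the median symbol and had the lowest ratios of that list.

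On the Atf4 side, 18 cytosolic aminoacyl-tRNA synthetases had a median of 0.08, with 12 above 0, 15 above the median symbol and 0 past 2-fold. Cars1 (0.75) and Yars1 (0.53) were highest and Farsb (-0.61) was lowest. The 10 genes of eIF2 kinases and of eIF2 and eIF2B subunits had a median of -0.09, with 7 above the median symbol. The 11 further genes of serine, one-carbon and amino acid metabolism had a median of -0.21, with 6 above the median symbol, Psph at 0.54 and the thymidylate synthase Tyms at -1.0 (12.2 FPKM after AngII and 25.3 FPKM in control). The 13 further Atf4-associated genes had a median of 0.27, not far from the 0.34 of the Atf4 arm. Of these 9 lay above the median symbol and 3 were at least 2-fold higher. Slc7a11, the cystine importer, stood at 5.84 FPKM after AngII (3.36 to 8.31) and 1.45 FPKM in control (0.751 to 2.15). Atf3, a stress-induced factor, stood at 1.35 FPKM after AngII (0.577 to 2.12) and 0.115 FPKM in control (0.00659 to 0.224). Bounds lay apart for both, but not for the leucine importer Slc7a5 (69.4 FPKM after AngII and 30.1 FPKM in control, log2 ratio 1.18). Jdp2 had the lowest ratio of this list (-0.78).

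**Figure D4:**
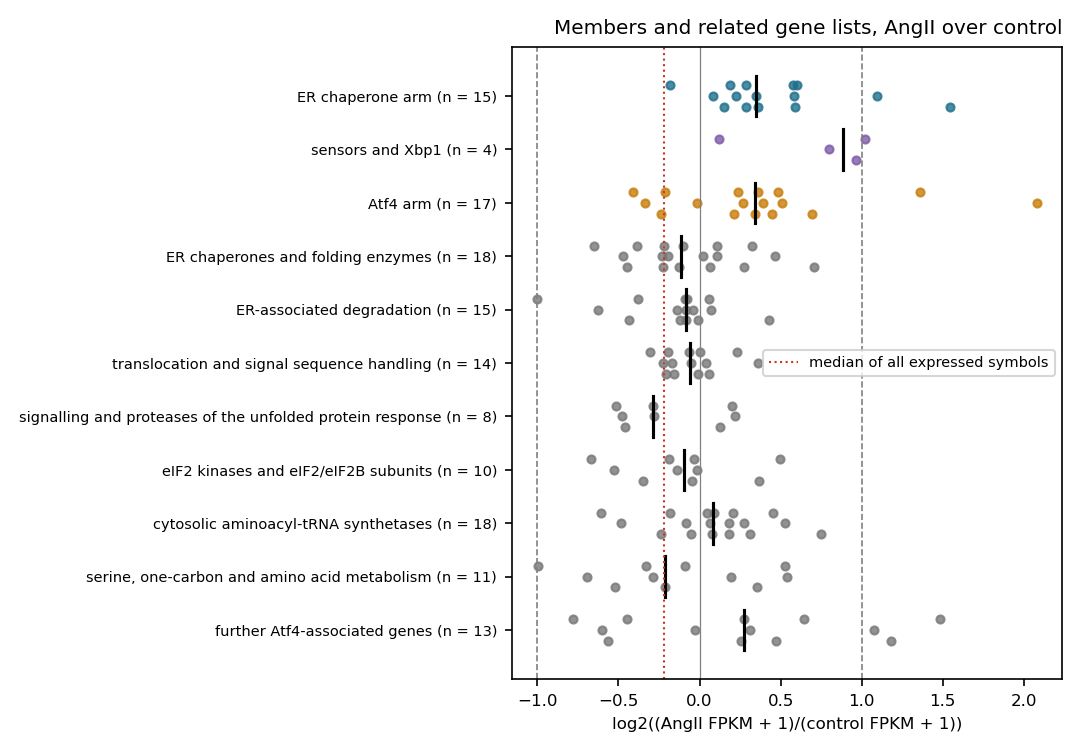
Log2 ratio of AngII over control for the 3 member groups in colour and for 8 related lists in grey, each point an expressed gene and each black bar a list's median. The dotted line marks the median of all expressed symbols at -0.22, and of the grey lists the further Atf4-associated genes have the highest median at 0.27.

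H3K4me3 lay at all 36 members on assembled chromosomes in both conditions, that is, a region lay within 1 kb of the locus. Of expressed symbols 96.3% had such a region after AngII and 96.3% in control, so the members' count is close to the background. For width, 31 members with an interval of their own were used. Calr, Atf5, Mthfd2, Ddit3 and Vldlr were left out there, because Calr shares its listed interval with 23 other loci and Atf5 with 98 others, and the remaining 3 share theirs too. The median summed width was 5.60 kb after AngII and 5.05 kb in control, against 4.8 kb after AngII and 4.44 kb in control over expressed symbols with a region. The lists are built from bins of 160 bp after AngII and 153 bp in control, so a width ratio of 1.05 means the same number of bins. That was the median ratio of the 31 members and also of all expressed symbols. In bins, 15 members were wider after AngII, 10 narrower and 6 equal, while over expressed symbols 43.7% were wider and 49.0% narrower.

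Single members differed more. In the ER chaperone arm, P4hb had 16.3 kb of H3K4me3 after AngII and 8.57 kb in control. Its locus was covered over 43.4% after AngII and 40.8% in control, so most of that difference lay outside the locus. Sel1l had 4.96 kb after AngII and 2.75 kb in control. Creld2 had 8.80 kb after AngII in 2 regions, the widest of 6.24 kb, and 6.43 kb in control in 1 region. Hsp90b1 had 8.32 kb after AngII and 5.97 kb in control. Hspa5, with the largest RNA ratio of that arm, had 8.16 kb after AngII and 7.96 kb in control, which covered its whole 4.46 kb locus in both conditions. Among the sensors, Atf6 had 10.6 kb after AngII and 4.90 kb in control, in 4 regions each. Ern1 had 1.6 kb after AngII and 0.459 kb in control, the narrowest of the 31 and the largest width ratio among them. Its 2 regions after AngII lay in the lowest score quartile of their list, and its 1 region in control did not. With that quartile left out, Ern1 had a region in control only, so no gain is drawn from its width. In the Atf4 arm, Chac1 had 5.92 kb after AngII and 5.05 kb in control, Ppp1r15a 9.76 kb after AngII and 9.64 kb in control, and Atf4 11.0 kb after AngII and 10.6 kb in control. Trib3 had 2.88 kb after AngII and 4.13 kb in control, with an RNA ratio above 0. Of the 5 members past the 2-fold RNA rule, Ern1 and Creld2 thus had a summed H3K4me3 width larger by over 1 kb. Both had 2 regions after AngII and 1 in control. For Hspa5, Chac1 and Ppp1r15a the summed width in kb was larger by less than that. Counted in bins, Chac1 was wider after AngII, while Hspa5 and Ppp1r15a were narrower.

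**Figure D5:**
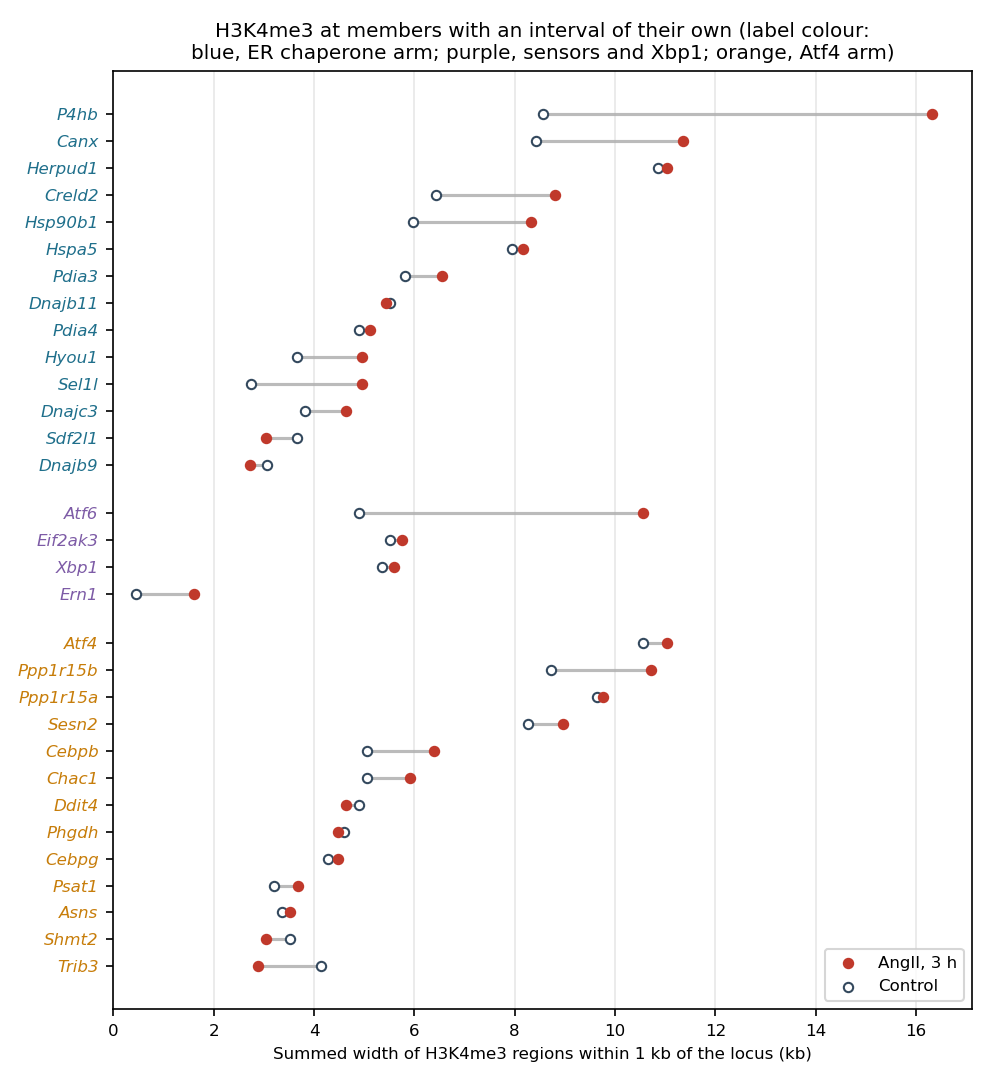
Summed width in kb of the H3K4me3 regions within 1 kb of each of the 31 members with an interval of their own, as filled points after AngII and open points in control. P4hb and Atf6 show the widest gaps, and Hspa5, Chac1 and Ppp1r15a little difference.

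H3K36me3 lay on 35 of the 36 members in both conditions, against 97.5% of expressed symbols after AngII and 95.6% in control. Mean cover of the locus over the 36 was 92.1% after AngII and 91.0% in control, a difference of 1.10 points. Over all expressed symbols it was 84.7% after AngII and 80.7% in control, a difference of 3.93 points. Both means include intervals shared with other loci, and over the 31 members with an interval of their own the difference was 0.556 points. Whole loci were covered at 27 of the 31 members with an interval of their own in each condition. Over all such expressed symbols the share was 61.0% after AngII and 59.8% in control. Loci of at most 8 kb made up 14 of the 31 members and 1417 of the 6452 symbols. The part of locus length in these shares was not tested. Hspa5, Chac1 and Ppp1r15a were covered wholly in both conditions, so cover could not differ there. Sdf2l1, a 2.24 kb locus, had no region, and the nearest lay 9.12 kb away after AngII and 9.46 kb away in control. Cebpb was covered over 100% after AngII and 78.3% in control, and Cebpg over 91.5% after AngII and 100% in control.

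The H3K36me3 region around some short members had other limits in the 2 lists. The region at Ppp1r15a was 139 kb wide after AngII and 9.42 kb wide in control. At Shmt2 it was 281 kb after AngII and 5.89 kb in control, and at Cebpb 106 kb after AngII and 5.30 kb in control. Hspa5 went the other way, with 65.8 kb after AngII and 156 kb in control. Of 30 members with 1 region in each condition, 5 were in a region at least 2-fold wider after AngII and 1 in a region at least 2-fold narrower, against 10.6% and 3.33% of 5346 expressed symbols. A wide region takes in neighbouring genes, and whether its limits depend on the member was not tested.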

How the data were processed

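RNA-seq (ribosomal RNA depleted, per the labels) and ChIP-seq of 2 marks were analysed, with 1 library per condition and assay. The 2 input samples were not analysed here. The authors deposited FPKM values with lower and upper bounds. TopHat, Cufflinks and Cuffdiff, and Bowtie for ChIP-seq, with rn4 as assembly, were used per the submitters' processing notes, which give no version numbers. The RNA tables of both conditions are identical and hold both libraries, so 1 was read. Of 30937 loci, 15 had no usable estimate and were left out. The number of reads per library is unknown here. At 10 FPKM or more the bounds imply a median relative SD of 21.1% in each library. The ChIP lists give a score per region, deposited by the authors on an unstated scale, which was used only as a filter within a list. Which program called the regions was not given in the sources used here. Samples were grouped by title.

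Accessions were paired with symbols through a RefSeq table of GRCr8, used for names and promoter sequence only, and no coordinate was carried between assemblies. The RNA loci carry no strand, so overlapping antisense transcripts cannot be told apart. Symbols matched at 2 loci were Dnajb9, Pdia4, Xbp1, Eif2ak3 and Ppp1r15b among the members named. Calls used a pseudocount of 1 FPKM, a minimum of 1 FPKM and a 2-fold rule. The ratio from bound to opposite bound divides the lower AngII bound by the upper control bound, and the reverse. No count test was run, since the values are not counts. Calculations used Python 3.11.15, numpy 2.4.6 and pandas 2.3.3 and were tested on simulated data.

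The members and lists were chosen with earlier results of these data known. All 39 members may be named. From related lists, the 4 expressed genes with the largest absolute ratio, and any past 2-fold with bounds apart, were eligible. Rpn1 and Qars1 lie outside this rule and were named only as examples of a listed 0. Promoters printed were those of the 3 members per arm with a motif and the largest ratio. The alternatives varied the pseudocount, scaling, FPKM minimum, fold, locus choice, H3K4me3 window, region score and H3K36me3 cover. Some eligible genes are not reported here.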

Additional observations from a re-analysis of the deposited data

How the results depend on the processing

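Scaling moved the medians of the arms most, and a pseudocount of 5 moved some single members as far, with Ern1 at 0.71. Multiplying AngII values by 1.21, so that the median expressed locus is at 0, gave medians of 0.63 for the ER chaperone arm and 0.61 for the Atf4 arm and put 34 of 36 members above 0. Xbp1 and Atf6 then joined the members at least 2-fold higher, 7 in all. Scaled to the upper quartile there were 6, and with a pseudocount of 0.1 also 6, with Atf6 added in each. With a pseudocount of 5 there were 3 (Chac1, Hspa5 and Ppp1r15a), 1 of them in the ER chaperone arm. That arm had 4 members higher under a 1.5-fold rule and 0 when bounds had to lie apart. The Atf4 arm kept 2 members 2-fold higher under each scaling, pseudocount and minimum, and had 3 under the 1.5-fold rule. No setting gave a member 2-fold lower. The difference of medians stayed between -0.04 and 0.00198 under the settings run. Without regions in the lowest score quartile the mean H3K36me3 difference was -1.73 points, the opposite sign to 1.10, so no direction is drawn from it. Of the values recomputed for single members 250 stayed within their model error and 1 moved, Hyou1 when centred (0.63). This is a weak check. The FPKM minimum cannot alter a single ratio, and summing over loci can alter only symbols matched at 2 loci. For members other than Hyou1 the model error was also wider than the shift from centring. The deposited bounds, not a known depth, limit what can be separated. No paired analysis was possible because AngII and control have 1 library per assay; leaving out replicates was likewise impossible.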
